A study of Mus musculus with 3 samples.

Results

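Somatostatin (Sst) interneuron nuclei were picked out of single-nucleus RNA libraries of the hippocampus of 3 adult female mice, 1 library per mouse. All 3 mice carried the genotype Scn8aD/+, heterozygous for the D allele of Scn8a, the gene of a voltage-gated sodium channel alpha subunit, and their titles place them after onset. Mouse and batch cannot be told apart, because mouse 1 was batch 1, mouse 2 batch 2 and mouse 3 batch 3. Animals before onset and controls were not analysed here, so every comparison below sets classes of nuclei against each other within these mice and none tests the genotype. The tissue was both hippocampi of a mouse, and nuclei were sorted on a DNA stain, without a marker of any cell type.

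A nucleus counted as an Sst nucleus when it had at least 500 genes, Gad1 plus Gad2 of at least 3 unique molecular identifiers (UMIs) and above Slc17a7, Sst of at least 2 UMIs, and Sst above each of Pvalb, Vip and Lamp5. Gad1 and Gad2 make GABA and Slc17a7 is the vesicular glutamate transporter of hippocampal excitatory neurons. The rule found 313 nuclei among 27426 barcodes, 149 in mouse 1, 24 in mouse 2 and 140 in mouse 3. They were 313 of the 3080 nuclei that met the GABA part of the rule, and the other 2767 are called other GABA nuclei here. The 7 genes of the rule chose the nuclei, so their values are described and not tested.

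Somatostatin interneurons arise in the medial ganglionic eminence and inhibit the distal dendrites of principal cells. In the hippocampus they include the oriens lacunosum-moleculare (OLM) cells of CA1 and the dendrite-targeting cells of the hilus, which are known as vulnerable in several seizure models. They release GABA together with the peptide somatostatin, and the postsynaptic protein Elfn1 makes the excitatory synapses onto them facilitate.

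The Sst nuclei made up 17.6% of GABA nuclei in mouse 1 (95% Clopper-Pearson interval 15.0 to 20.3%), 5.25% in mouse 2 (3.39 to 7.71%) and 7.89% in mouse 3 (6.68 to 9.25%). The intervals cover counting error only. Mouse 1 stood above the other two, and the mean was 10.2% ± 6.47 (SD, n = 3). The denominator differed between mice in a measured way. A gate on Gad2 of at least 1 UMI and on further inhibitory genes, among them Slc32a1, the vesicular GABA transporter, of at least 1 UMI in sum was passed by 92.6%, 79.2% and 72.9% of the Sst nuclei of mice 1, 2 and 3. Of the other GABA nuclei it was passed by 62.9%, 58.9% and 17.3%. Among gated nuclei the Sst share was 23.9%, 6.93% and 26.5%. Prox1 and Bdnf, which dentate granule cells express strongly, were highest in the other GABA nuclei of mouse 3, with 282 UMIs per 1000000 UMIs of the sum (CPM) for Prox1 against 117 and 84.8 CPM in mice 1 and 2, and 1133 CPM for Bdnf against 219 and 138 CPM. The gate was added as an alternative after these values were seen. For the 25 genes named by the rule the plot of folds gives its value, and calls that it ended are given with the gene lists.

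Depth also differed. The Sst nuclei had a median of 16222, 18163 and 39200 UMIs in mice 1, 2 and 3, and the other GABA nuclei had 13487, 6153 and 26849.5 UMIs. Sst sums held 2899047, 542662 and 6314671 UMIs, so the values of mouse 2 rest on the fewest nuclei and the fewest UMIs. Of the 313 nuclei, 35 were among the library's highest doublet scores (19, 0 and 16 by mouse), and they were kept in the main analysis. They made up 12.8%, 0% and 11.4% of the Sst nuclei of mice 1, 2 and 3. Over all nuclei with at least 500 genes, 6.90%, 10.6% and 3.74% had such scores. No barcode was an Sst nucleus in more than 1 library. Across all barcodes 74 occurred in more than 1 library, among them those of 2 Sst nuclei.

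The label was checked on genes outside the rule. Lhx6, Sox6 and Satb1, transcription factors of interneurons from the medial ganglionic eminence, were present in the Sst nuclei of all 3 mice, with Lhx6 at 50.0, 53.4 and 38.6 CPM, Sox6 at 306, 359 and 225 CPM and Satb1 at 334, 160.3 and 157 CPM. In glutamatergic nuclei (at least 3 Slc17a7 UMIs), Lhx6 was at 0.534, 0.61 and 0.156 CPM and Sox6 at 6.57, 10.9 and 4.59 CPM. Satb1 was at 58.6, 43.9 and 71.6 CPM there, below each Sst value. Lhx6 was also present in Lamp5 nuclei, at 69.5, 35.4 and 41.2 CPM, and in Pvalb nuclei, at 69.5, 27.9 and 70.8 CPM. These Lhx6 values overlapped those of the Sst nuclei, so Lhx6 does not set them apart from those classes. Chodl and Nos1 mark a small class of long-range projecting Sst cells, and Chrna2 marks OLM cells. Chodl had 0, 3 and 0 UMIs in the Sst nuclei of mice 1, 2 and 3, where 0 UMIs allow up to 1.03 CPM in mouse 1 and 0.475 CPM in mouse 3. Chrna2 had 6, 0 and 9 UMIs, and 0 UMIs allow up to 5.53 CPM in mouse 2. The counts of Chodl and Chrna2 are too few for either subtype to be described from them. Nos1 had 31, 27 and 50 UMIs in Sst nuclei, or 10.7, 49.8 and 7.92 CPM, against 29.0, 17.6 and 7.51 CPM in other GABA nuclei. Mouse 2 was highest among the Sst values, and the classes overlapped.

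Sst itself was at 409, 181 and 248 CPM in the Sst nuclei of mice 1, 2 and 3, and at 8.37, 10.2 and 4.01 CPM in other GABA nuclei. The difference follows from the rule. In nuclei thinned to 3000 UMIs, 63.1%, 54.2% and 47.1% of Sst nuclei still had an Sst UMI, against 1.71%, 1.48% and 2.26% of glutamatergic nuclei, which is taken as the background level. Whether it came from free RNA, doublets or misassigned nuclei was not tested. Before thinning, at median depths of 16500, 10807 and 40632 UMIs, 9.54%, 5% and 18.6% of glutamatergic nuclei had an Sst UMI. The rule's minimum of 2 Sst UMIs was reached by 1.17%, 0.51% and 4.02% of them. At that minimum, background was highest in mouse 3, where Sst nuclei were 7.89% of GABA nuclei. How many Sst nuclei reached the minimum through background was not tested.

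The promoters of Sst and of 3 further peptide-related genes are shown because the cAMP response element (CRE), the letters TGACGTCA, was first described in the somatostatin gene. Each line gives the 100 bases before the RefSeq start (GRCm38.p6), 5′ to 3′ on the gene's strand, with a whole CRE or its half-site (TGACG, or CGTCA on the other strand) in capitals. The windows are chr16:23890845-23890944 (minus strand) for Sst, chr4:149126764-149126863 (minus) for Cort, chr6:49822610-49822709 (plus) for Npy and chr13:95444832-95444931 (minus) for Crhbp.
Sst: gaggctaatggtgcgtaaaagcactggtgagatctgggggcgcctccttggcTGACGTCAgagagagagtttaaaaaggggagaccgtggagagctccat
Cort: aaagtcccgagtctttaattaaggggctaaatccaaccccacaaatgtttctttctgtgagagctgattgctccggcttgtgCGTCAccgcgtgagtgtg
Npy: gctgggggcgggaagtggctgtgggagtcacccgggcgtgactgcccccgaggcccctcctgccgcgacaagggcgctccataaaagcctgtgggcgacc
Crhbp: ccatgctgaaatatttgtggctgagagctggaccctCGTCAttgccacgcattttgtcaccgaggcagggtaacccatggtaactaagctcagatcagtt
The Sst window holds 1 whole CRE, which starts 48 bases before the start. Cort, the gene of the related peptide cortistatin, and Crhbp hold 1 half-site each, and the Npy window holds none of these letters. Searched on either strand in windows of 300 bases around the start, the whole CRE stood in 2.03% of all 27025 genes in the promoter table and in 3.63% of the 10233 tested genes with a listed promoter. It stood in 4 of the 183 genes with a listed promoter that were higher in Sst nuclei (Daam2, Kctd8, Olfm2 and Ptpru), or 2.19%. The half-site, which every whole CRE contains, stood in 23.0% of all promoters, in 35.8% of those of tested genes and in 23.5% of those 183. A match describes letters only.

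The 4 genes had unlike levels. Cort had 29, 1 and 72 UMIs in the Sst nuclei of mice 1, 2 and 3, which is 10.0, 1.84 and 11.4 CPM, and 27, 0 and 7 UMIs in the Pvalb nuclei, where 0 UMIs allow up to 20.9 CPM in mouse 2. Npy and Crhbp were among the genes that stood furthest above other GABA nuclei and are described next.

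Against other GABA nuclei in the same mouse, 269 of 13626 tested genes were higher in Sst nuclei and 426 were lower, which is 5.1% called in either direction, 1.97% higher and 3.13% lower. The test was edgeR's quasi-likelihood test on UMI sums with mouse as a block, and calls needed a Benjamini-Hochberg adjusted p below 0.05 together with a change of 1 or more on the log2 scale, up or down. The median log2 fold change of all tested genes was -0.12. These shares and this median are the background for each gene list compared with other GABA nuclei below. Without the block 5 genes passed (4 higher and 1 lower), and without mouse 2 there were 298. Without mouse 1 there were 612, and without mouse 3 there were 434. With the gate 471 passed, and 294 of the 695 genes were called again in the same direction. The 3 mice may differ in more than their biology. With mouse as a block, p-values measure how far the difference between classes varied across these 3 libraries. The spread of levels between libraries is taken up by the block. In such sums fewer nuclei with a transcript and less of it per nucleus cannot be told apart.

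The extracellular protein reelin (Reln, chr5:21884454-22344702) was at 1059.7, 1067 and 1093 CPM in the Sst nuclei of mice 1, 2 and 3, and at 299, 253 and 72.5 CPM in other GABA nuclei. The Sst values had a mean of 1073 CPM ± 17.4 (SD, n = 3), and the groups did not overlap. The log2 fold change was 2.45 (SE 0.31, adjusted p = 0.00091 by edgeR), and it was 1.84 with the gate. Without mouse 2 the fold was 2.72 and no longer passed.

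Elfn1 (chr5:139907943-139974722), the postsynaptic organizer named above, was at 122, 142 and 135 CPM in Sst nuclei and at 23.4, 23.7 and 9.98 CPM in other GABA nuclei. Its 3 Sst values differed little between mice, and the log2 fold change was 2.79 (SE 0.23, adjusted p = 8.7e-05 by edgeR). Elfn1 was not particular to Sst nuclei. The 40, 15 and 23 Vip nuclei, chosen by the same rule with Vip, had 90.0, 50.0 and 156 CPM, above the Sst value in mouse 3. In nuclei thinned to 3000 UMIs, 26.2%, 25% and 30% of Sst nuclei had an Elfn1 UMI, against 0.890%, 1.71% and 1.55% of glutamatergic nuclei.

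Peptide genes came next. Npy (chr6:49822710-49829507), the gene of neuropeptide Y, was at 204, 300.4 and 409 CPM in Sst nuclei and at 51.7, 47.0 and 56.7 CPM in other GABA nuclei. Mouse 3 was highest and mouse 1 lowest among the Sst values, and all 3 lay above every other value (log2 fold change 2.35, SE 0.18, adjusted p = 7.5e-05 by edgeR). Crhbp, which binds corticotropin-releasing hormone, was at 94.2, 70.0 and 210.0 CPM against 24.8, 17.2 and 24.7 CPM, a log2 fold change of 2.25 (SE 0.21), and it was called at 1.47 with the gate. Pvalb nuclei shared Crhbp, at 106, 20.9 and 218 CPM, above the Sst values of mice 1 and 3. It was not among the genes called between Sst and Pvalb nuclei.

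Of 16 neuropeptide genes, 11 were tested. Only Npy was higher, and the opioid precursors Penk (log2 fold change -1.39) and Pdyn (-2.48) and the gastrin-releasing peptide gene Grp (-1.45) were lower; the list's median was -0.38. Penk was at 11.4, 11.1 and 122 CPM in Sst nuclei and at 43.9, 14.9 and 219 CPM in other GABA nuclei, so both classes were highest in mouse 3. With the gate Penk was at -0.29 and Grp at -0.23, neither called, and Pdyn had too few UMIs to be tested. Without mouse 2 none of the 3 was called, Penk at -1.43, Pdyn at -2.38 and Grp at -1.48. Without mouse 1 Penk lost its call (-0.91), and without mouse 3 Grp did (-0.98).

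Among 25 genes of neuropeptide receptors, 19 were tested, 1 was higher and 1 was lower (median 0.27). The kappa opioid receptor Oprk1 was at 19.0, 7.37 and 6.97 CPM in Sst nuclei and 2.53, 3.17 and 0.386 CPM in other GABA nuclei (log2 fold change 2.92, SE 0.43, adjusted p = 0.0018 by edgeR). Its Sst value in mouse 2 rests on 4 UMIs. The neuropeptide Y receptor Npy1r went the other way, at 9.66, 5.53 and 4.12 CPM against 22.8, 10.9 and 12.5 CPM (log2 fold change -1.56). Both calls were also made with the gate, at 2.33 and -1.76. Cadps2, a factor for priming dense core vesicles, was the 1 called gene of 20 for peptide processing and dense core vesicles, and it was lower (log2 fold change -1.77, -2.38 with the gate).

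The genes furthest above other GABA nuclei by the naming rule included matrix and surface genes. Emp1, a membrane protein, was at 17.9, 31.3 and 28.5 CPM in Sst nuclei and at 0.349, 1.36 and 2.51 CPM in other GABA nuclei (log2 fold change 3.89, SE 0.37). The laminin chain Lama4 was at 38.3, 25.8 and 27.6 CPM against 4.01, 4.30 and 2.20 CPM (3.13, SE 0.24), and the collagen chain Col5a3 at 33.8, 46.1 and 55.0 CPM against 2.88, 2.49 and 11.4 CPM (2.83, SE 0.33). No value of the other GABA nuclei reached a value of the Sst nuclei for these 3 genes. With the gate all 3 were called, Emp1 at 3.00, Lama4 at 3.35 and Col5a3 at 1.97.

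Lypd6 and Lypd6b, proteins that modulate nicotinic acetylcholine receptors, had log2 fold changes of 2.19 and 2.95. The transcription factor Klf5 was at 89.7, 75.6 and 104 CPM in Sst nuclei against 16.8, 12.9 and 15.3 CPM (log2 fold change 2.42, SE 0.17). The endopeptidase Ecel1, the long noncoding RNA Morrbid, the phospholipid flippase Atp8b1 and the phosphodiesterase Pde1c followed, between 2.12 and 2.81. Of the 15 highest and 10 lowest genes named by the rule, all 25 were called again with the gate, 25 with DESeq2 and 25 without the nuclei of highest doublet score. Without the block 4 of them passed, without mouse 2 all but Reln, and without mouse 3 all but Atp8b1, whose fold was then 1.38.

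**Figure D1:**
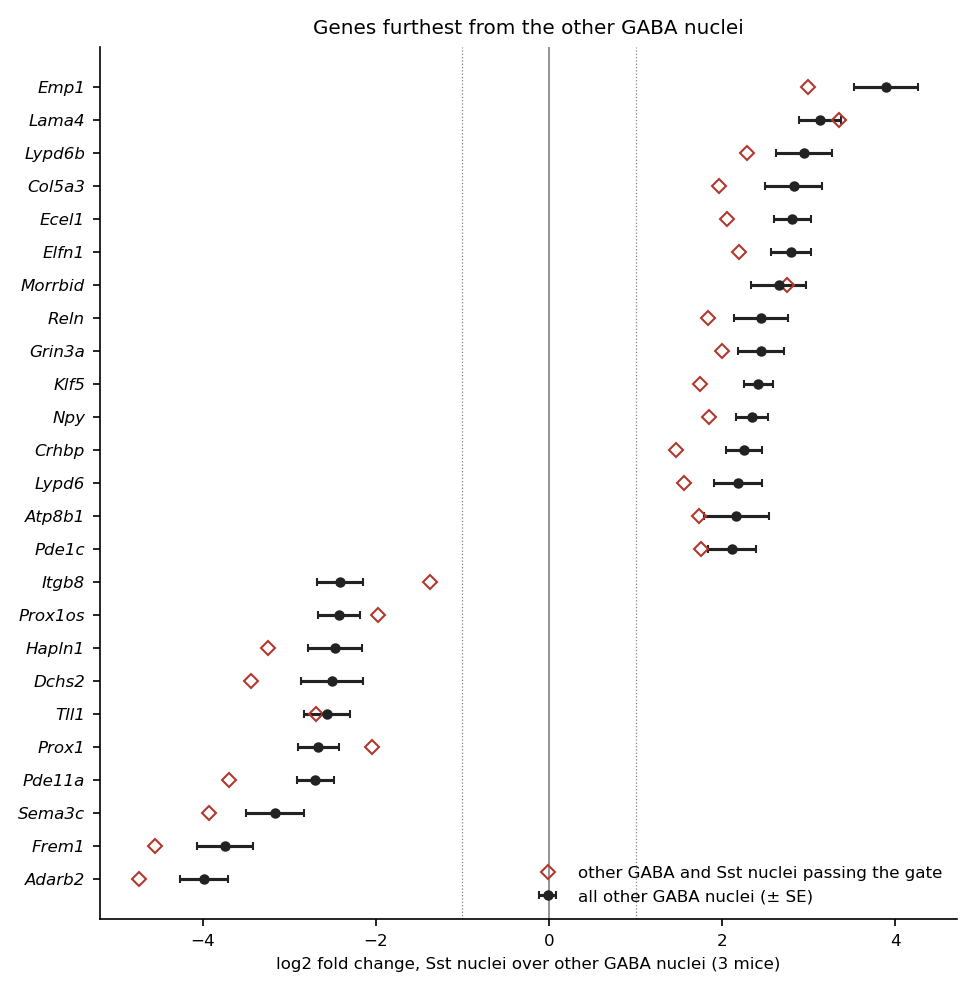
Log2 fold change of Sst nuclei over other GABA nuclei for the 15 highest and 10 lowest genes named by the rule; filled points with bars are the value and its SE over 3 mice, open diamonds the value with the gate on Gad2 and further inhibitory genes, and dotted lines mark -1 and 1. Every diamond lies on the same side of 0 as its point, Emp1 leads at 3.89 and Adarb2 is lowest at -3.99.

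Of 28 genes known from Sst interneurons and OLM cells, 25 were tested, 9 were higher and 3 lower (median 0.10). Beside Reln, Elfn1, Npy, Crhbp and Grin3a, the 9 included Hpse, an enzyme that cleaves heparan sulfate, at 9.31, 7.37 and 11.2 CPM against 0.872, 0.452 and 0.232 CPM (log2 fold change 4.38, SE 0.48). Hpse had 4 UMIs in the Sst nuclei of mouse 2 and 2 in the other GABA nuclei there. Unc13c, a presynaptic priming factor, had a log2 fold change of 1.94, and the synaptic organizer Cbln4 one of 2.32. The potassium channel subunit Kcnmb2 was called at 1.23 and was at 0.57 with the gate. The list also holds Penk and Pdyn, which were lower, as was the heparan sulfate enzyme Ndst4 (-1.18), which was at -0.92 and not called with the gate. Leaving out mouse 1, 2 or 3 gave 10, 7 and 8 higher and 2, 0 and 1 lower genes in this list.

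Transcription factors of the medial ganglionic eminence were split. Of 18, 16 were tested, 5 were higher and 1 lower (median 0.53). Sox6 was at 306, 359 and 225 CPM against 120.4, 108 and 48.3 CPM (log2 fold change 1.62, SE 0.17), and Satb1 at 334, 160.3 and 157 CPM against 113, 78.7 and 32.4 CPM (1.51, SE 0.19). Satb1 was also called with the gate, at 1.22. Lhx6 (1.15) and Maf (1.08) were called but lay at 0.33 and 0.38 with the gate, where neither was called, and Sox6 lay at 0.99. The list had 4 higher genes without mouse 1, 2 without mouse 2 and 2 without mouse 3, where Lhx6 was at 1.72, 1.21 and 0.58 and lost its call in the last 2. St18, also a marker of oligodendrocytes, was lower by the main test (-1.61) and at -0.48 with the gate.

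Genes of interneurons from the caudal ganglionic eminence were lower than in other GABA nuclei. Of 18 such genes 14 were tested, none was higher and 8 were lower (median -1.89), and 10 were lower with the gate. Adarb2 (chr13:8202866-8768747), an RNA-binding protein that marks these interneurons, was at 181, 140.1 and 213 CPM in Sst nuclei and at 3381, 3162 and 1572 CPM in other GABA nuclei. The lowest other value was above every Sst value, and the log2 fold change was -3.99 (SE 0.27, adjusted p = 5.3e-05 by edgeR).

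Prox1, a homeobox factor of these interneurons that granule cells share, was at 18.3, 29.5 and 42.9 CPM against 117, 84.8 and 282 CPM. Its log2 fold change was -2.67 (SE 0.24), and -2.05 with the gate. Cxcl14 (-2.82), Htr3a (-2.21), Egfr (-2.22), Rgs12 (-2.05), Ndnf (-1.98) and Id2 (-1.80) completed the 8. Without mouse 2, Htr3a, Cxcl14, Egfr and Rgs12 lost their calls, with folds of -2.22, -2.81, -1.90 and -1.84. Without mouse 1, Htr3a and Rgs12 lost theirs, at -1.53 and -1.23.

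Further genes among the lowest were Frem1, an extracellular matrix protein, at 5.17, 0 and 3.01 CPM in Sst nuclei, where 0 UMIs allow up to 5.53 CPM, and at 85.2, 49.1 and 20.7 CPM in other GABA nuclei (log2 fold change -3.75, SE 0.32). The guidance cue Sema3c (-3.17), the phosphodiesterase Pde11a (-2.70), the metalloprotease Tll1 (-2.57), the cadherin Dchs2 (-2.51), the link protein Hapln1 (-2.47) and the integrin Itgb8 (-2.42) were also low, as was Prox1os (-2.43), which lies antisense to Prox1. Tll1 differed more between mice than between classes, at 34.5, 24.0 and 507 CPM in Sst nuclei and 167, 338 and 1779 CPM in other GABA nuclei, but was lower in Sst nuclei within each mouse.

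**Figure D2:**
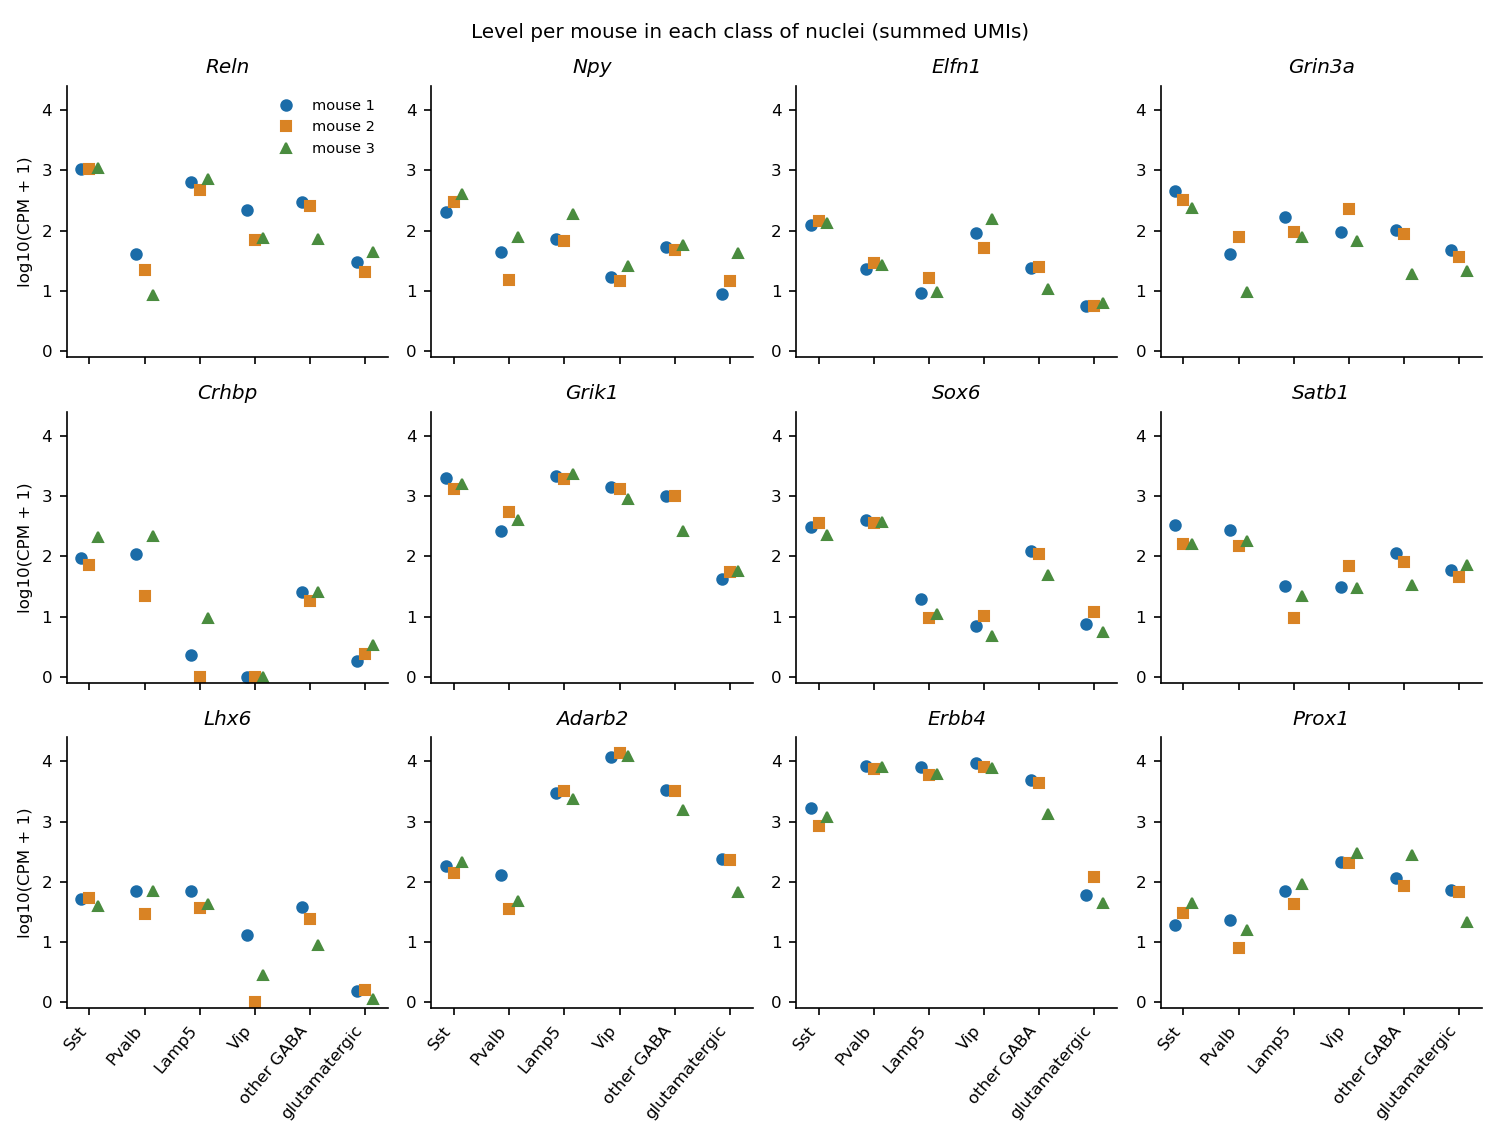
Level of 12 genes in 6 classes of nuclei, as log10(CPM + 1) of UMIs summed per mouse; each symbol is 1 mouse. In Sst nuclei Reln stands near 3 in all 3 mice, Adarb2 lies well below its level in Lamp5, Vip and other GABA nuclei, and Sox6 and Satb1 stand near their level in Pvalb nuclei.

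Ion channel and receptor genes moved singly. Of 10 sodium channel alpha subunit genes 7 were tested and none was called (median -0.42). At an unadjusted p under 0.05, 2652 of all genes passed edgeR, or 19.5%. Scn8a, the gene that carries the D allele, was at 259, 234 and 291 CPM in Sst nuclei and at 313, 273 and 385 CPM in other GABA nuclei, lower in each mouse but not called (log2 fold change -0.46, SE 0.16, adjusted p = 0.13 by edgeR). Reads of the 3′ end do not separate the D allele from the other, so these counts say nothing on the genotype. Fgf13, which binds sodium channels, was the 1 called gene of 11 tested sodium channel beta subunits and partners. It was at 248, 359 and 378 CPM against 862, 733 and 604 CPM (log2 fold change -1.32), and its fold was -0.94 without mouse 1 and -1.38 without mouse 2, with neither called.

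Of 44 potassium channel genes 43 were tested, 3 were higher and 4 lower (median -0.32). The voltage-gated channel Kcnh5 was at 60.0, 47.9 and 47.0 CPM in Sst nuclei against 23.0, 22.2 and 20.1 CPM (log2 fold change 1.09, SE 0.18). The related Kcnh1 was lower (-1.09), and both were called with the gate, at 1.39 and -1.12. Kcnip4 (-1.41), Kcnip3 (-1.16), Kcnj6 (-1.06) and Dpp10 (1.05), auxiliary or channel subunits, were not called with the gate, at -0.79, -0.51, -0.69 and 0.69. Leaving out mouse 1, 2 or 3 gave 4, 1 and 1 higher and 1, 2 and 3 lower genes, and Kcnh1 was not called without mouse 1 (-0.75) or mouse 2 (-1.13).

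Auxiliary alpha2delta subunits of calcium channels went in opposite directions. Cacna2d1 was at 203, 409 and 421 CPM in Sst nuclei and at 943, 808 and 1126 CPM in other GABA nuclei (log2 fold change -1.70, SE 0.23). Cacna2d3 was at 1578, 1424 and 1171 CPM against 542, 644 and 389 CPM (1.28, SE 0.17). Neither pair of groups overlapped. In all, 18 of 19 calcium and HCN channel genes were tested, 2 were higher and 2 lower (median 0.07). The other two, Cacna2d2 (1.04) and the T-type channel Cacna1h (-1.14), were not called with the gate, at 0.45 and -0.44.

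Ionotropic glutamate receptor genes were higher or not called. Of 17, 16 were tested, 4 were higher and none lower (median 0.02). The NMDA receptor subunit Grin3a (chr4:49661611-49845744) was at 448, 326 and 233 CPM in Sst nuclei and at 102, 86.9 and 17.9 CPM in other GABA nuclei (log2 fold change 2.45, SE 0.27, adjusted p = 0.00047 by edgeR). The kainate receptor subunit Grik3 was at 227, 239.6 and 158 CPM against 72.4, 86.2 and 24.9 CPM (1.80, SE 0.20). The kainate receptor subunit Grik1 (1.17) was called, and lay at 0.50 with the gate, without a call. It was also not called without mouse 2 (1.64) or mouse 3 (0.66).

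Of 14 GABA-A receptor genes 12 were tested, 1 was higher and 4 lower (median -0.78). Gabrd, the subunit of extrasynaptic receptors, was at 4.83, 1.84 and 0.792 CPM in Sst nuclei and at 18.5, 12.7 and 2.28 CPM in other GABA nuclei. In mouse 2 the Sst value is 1 UMI, where 0 UMIs allow up to 5.53 CPM. The Sst value of mouse 1 was above the other GABA value of mouse 3, so the groups overlapped, while every mouse was lower (log2 fold change -2.04, SE 0.35, and -2.56 with the gate). Gabra3 was higher (1.22), Gabra4 (-1.35) and Gabra5 (-1.08) were lower, and none of these 3 was called with the gate, at 0.69, -0.85 and -0.43. The list's lower genes numbered 2 without mouse 1, 2 without mouse 2 and 3 without mouse 3, and Gabrd was not called without mouse 1 (-1.98) or mouse 2 (-1.94).

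Among 27 receptor genes for acetylcholine and monoamines, 16 were tested, 1 was higher and 3 were lower (median -0.07). The dopamine receptor Drd2 was at 14.5, 7.37 and 5.54 CPM against 1.40, 2.71 and 1.29 CPM (log2 fold change 2.27, SE 0.40), and at 1.43 with the gate, not called. Its Sst value in mouse 2 rests on 4 UMIs. Htr3a, Chrm1 (-1.16) and Htr4 (-1.09) were lower, with 1 lower gene left without mouse 1, 1 without mouse 2 and 2 without mouse 3. Drd2 was also not called without mouse 1 (1.79). With the gate Chrm1 was at -0.80 and Htr4 at -0.14, neither called, and Htr3a was called at -2.98. Of 37 synaptic adhesion and organizer genes 36 were tested, 3 were higher (Elfn1, Cbln4 and Il1rapl2) and 2 lower (median -0.14). Il1rapl2, called at 1.17, was at 0.58 with the gate, 1.24 without mouse 2 and 0.91 without mouse 3, and was called in none of these. The neuregulin receptor Erbb4 was at 1677, 857 and 1173 CPM in Sst nuclei and at 4972, 4363 and 1330.2 CPM in other GABA nuclei (log2 fold change -1.51, SE 0.30). The classes overlapped, and without mouse 2 the fold was -1.02 and not called. Erbb4 was called with the gate (-2.18) and not with Sst of 5 or more (-1.58).

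Of 52 genes of epileptic encephalopathies 51 were tested, 1 was higher (Cux2, 1.54) and 3 were lower, among them Fgf13 and Mef2c (median -0.10). Over all tested genes 5.1% were called and the median was -0.12, so the list lay near the background. Mef2c, a transcription factor, was at 389.8, 230.3 and 415 CPM against 724, 617 and 949 CPM (log2 fold change -1.31), and it was called with the gate at -1.29, as was Fgf13 at -1.76. Cux2 was at 0.98 with the gate, not called. Without mouse 2 none of the 4 was called, with Mef2c at -1.19, Cux2 at 1.89 and Fgf13 at -1.38.

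Activity-regulated genes were not raised in Sst nuclei over other GABA nuclei by the main test. Of 32 tested, none was higher and 7 were lower (median -0.28): Fosl2, Nr4a2, Nr4a3, Ier5, Dusp4, Bdnf and Ptgs2. None of the 7 was called with the gate, where 1 other gene of the list was higher and the median was 0.31. Bdnf was at 71.4, 84.8 and 392 CPM against 219, 138 and 1133 CPM (log2 fold change -1.50, and -0.28 with the gate). Nr4a2 was at 74.9, 12.9 and 33.9 CPM against 222, 8.14 and 108 CPM, higher in Sst nuclei in mouse 2 and lower in the other mice (-1.64, and 0.01 with the gate).

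Markers of other cell types were measured in both classes. The 17 glutamatergic markers summed to 1105.2 to 1426 CPM in Sst nuclei and 1666 to 1782 CPM in other GABA nuclei, and 1 of 15 tested, Prox1, was lower. Slc17a6 was at 2.41, 0 and 0.475 CPM in Sst nuclei. The 10 oligodendrocyte markers summed to 210.4 to 396 CPM against 340.0 to 748 CPM, and 1 of 10 tested, St18 (-1.61), was lower. The 7 markers of oligodendrocyte precursors summed to 466 to 534 CPM against 596 to 637 CPM, and 1 of 4 tested, Pdgfra (-3.00), was lower. The 10 astrocyte markers summed to 332 to 749 CPM against 462 to 707 CPM, and 2 of 5 tested, Slc1a3 (-1.32) and Slc4a4 (-1.80), were lower. The 10 microglia markers summed to 43.5 to 129 CPM against 47.3 to 230.5 CPM, and 0 of 8 tested were called. The astrocyte gene Aqp4 was at 1.03, 1.84 and 3.01 CPM in Sst nuclei. The part of these levels in the results was not tested.

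The nuclei near the threshold were described without a test. Nuclei with exactly 2 Sst UMIs numbered 25, 10 and 40 in mice 1, 2 and 3, and nuclei that met the rule but for 1 Sst UMI numbered 66, 33 and 170. Adarb2 was at 112, 232 and 623 CPM just inside the threshold and at 1122, 1202 and 945 CPM just outside it. Reln was at 299, 1060.6 and 204.5 CPM inside and at 275, 457 and 27.4 CPM outside. Just inside, mouse 3 stood apart with the highest Adarb2 and Bdnf (822 CPM, against 109.6 and 106 CPM in mice 1 and 2).

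Levels also varied with the number of Sst UMIs among the members. The 174 nuclei with 5 or more Sst UMIs (90, 6 and 78 by mouse) had Reln at 1404, 1183 and 1534 CPM, against 391, 1016 and 453 CPM in the 139 nuclei with 2 to 4. Npy was at 273, 468 and 542 CPM against 71.0, 226 and 216 CPM. Adarb2 was at 219, 12 and 51.9 CPM against 107, 197 and 447 CPM, so mouse 1 differed from mice 2 and 3. Erbb4 was lower in each mouse, at 912, 426 and 960.4 CPM against 3160.4, 1048 and 1482 CPM. Nuclei with 5 or more had deeper libraries, with medians of 18618.5, 29148 and 41872 UMIs against 13840, 16511 and 35283.5 UMIs, and the part of depth in these levels was not tested.

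**Figure D3:**
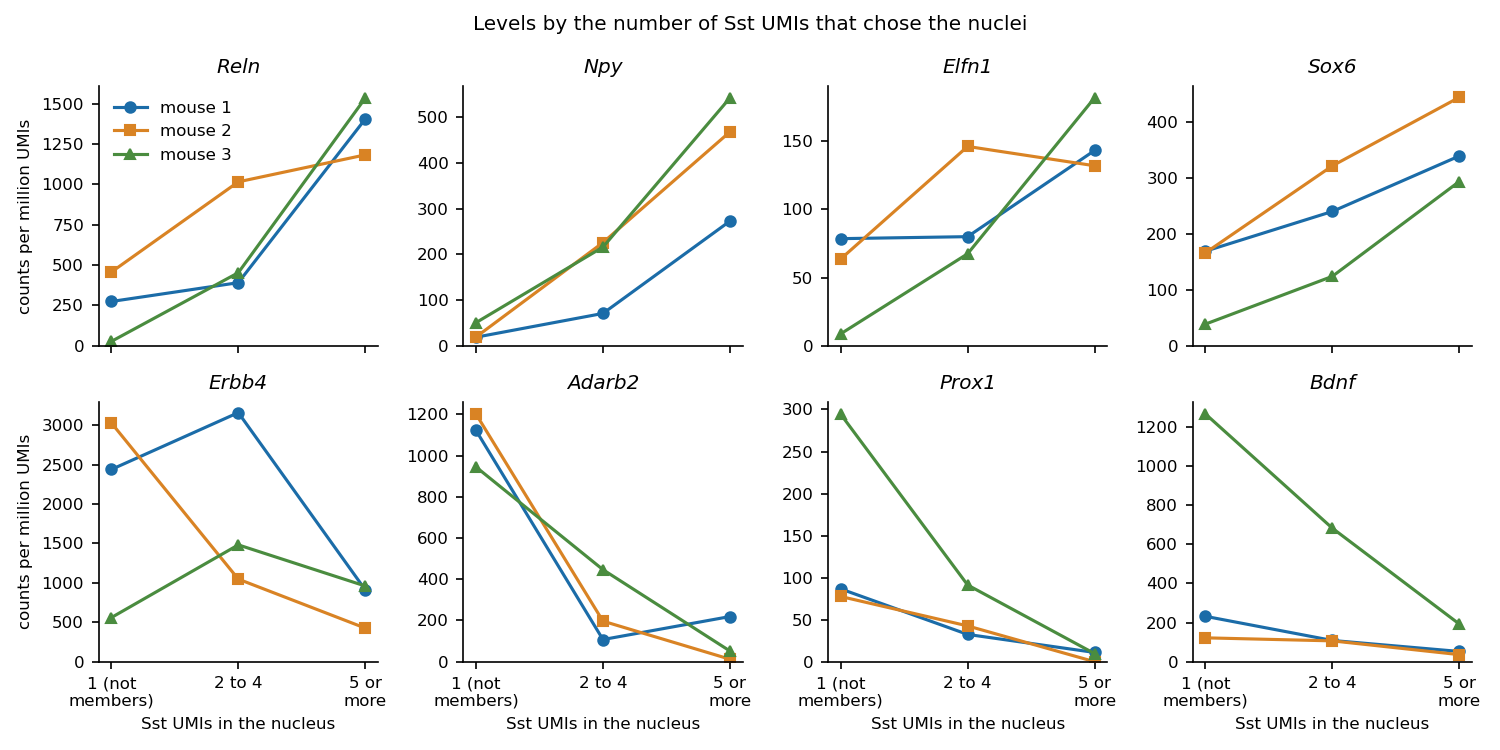
Level of 8 genes (CPM) in nuclei grouped by their Sst UMIs: 1 UMI, which are not members, 2 to 4 and 5 or more; each line is 1 mouse. Reln and Npy are highest and Prox1 and Bdnf lowest in nuclei with 5 or more in each mouse, while Adarb2 falls from 2 to 4 to 5 or more in mice 2 and 3 and not in mouse 1.

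The members were not uniform in their markers. In nuclei thinned to 3000 UMIs, 66.4%, 70.8% and 55.7% of Sst nuclei had a Reln UMI and 31.5%, 37.5% and 47.9% an Npy UMI. Npy was found in 41.4%, 47.1% and 53.8% of the Sst nuclei with a Reln UMI and in 12%, 14.3% and 40.3% of those without one. Elfn1 was found in 33.3%, 23.5% and 44.9% of nuclei with a Reln UMI and in 12%, 28.6% and 11.3% of those without, so mouse 2, with 7 nuclei in the last group, ran against mice 1 and 3. These shares are descriptions of nuclei within a library and carry no test.

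The Sst nuclei were split by Npy, with 185 nuclei of 2 or more Npy UMIs and 94 of 0. Mouse 2 had 15 and 8 nuclei and was left out of the fit by the minimum of 10, so the test rests on mice 1 and 3. Of 10116 genes 75 were higher and 31 lower in Npy-positive nuclei, 1.05% in either direction (0.741% higher and 0.306% lower), and 8.64% had an unadjusted p under 0.05. This result was unstable: 0 genes passed without the block, after thinning to 1000 UMIs or with Npy of 1 or more in place of 2, where edgeR left 125, 53 and 596 genes at an unadjusted p under 0.05. DESeq2 called 12 genes. Npy-positive nuclei were also deeper, with medians of 18787 and 42121 UMIs against 13905 and 29845.5 UMIs in mice 1 and 3. In mouse 3 the gate on inhibitory genes was passed by 91 of 107 Npy-positive nuclei but only 5 of 22 Npy-negative ones. In mouse 1 it was passed by 60 of 63 and 58 of 64. No gated fit was possible, and the part of the ungated nuclei in these results was not tested.

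Within those limits, Reln was at 1525 and 1270.0 CPM in Npy-positive nuclei of mice 1 and 3 and at 607 and 321 CPM in Npy-negative ones (log2 fold change 1.75, SE 0.30). Mouse 2, outside the fit, had 1591 and 266 CPM. The Wnt carrier Wls was at 147 and 38.7 CPM against 25.7 and 5.56 CPM (2.67, SE 0.34), and the zinc finger gene Zfp804b at 94.5 and 133 CPM against 900.1 and 476 CPM (-2.43, SE 0.31). Wls was also called by DESeq2 and without the nuclei of highest doublet score, and Zfp804b by DESeq2. Morrbid, the tissue factor gene F3, Ecel1, Stk32b and Cd44 were the other genes named as highest, between 2.44 and 3.60. Ptprk, Ptch1, Itga8, Slc4a4 and Prr16 were the others named as lowest, between -1.69 and -1.63. Of 31 activity-regulated genes tested 3 were higher, Fosb (1.54), Dusp1 (1.73) and Vgf (1.15), beside a list median of 0.11.

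Pvalb nuclei, the other large class from the medial ganglionic eminence, were chosen by the same rule with Pvalb in place of Sst and numbered 87 (54, 7 and 26 by mouse). Mouse 2 was left out of the fit for its 7 nuclei, so this comparison rests on mice 1 and 3, with 1 residual degree of freedom per gene before pooling across genes. Of 11636 genes, 590 were higher in Sst nuclei and 341 lower, 8% in either direction (5.07% higher and 2.93% lower), with a median of 0.07 over all genes and 23.4% at an unadjusted p under 0.05. Without the block edgeR called 0, with 829 genes at an unadjusted p under 0.05, and DESeq2 called 413.

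Reln was among the named genes higher in Sst than in Pvalb nuclei. Pvalb nuclei had 40.6 and 7.45 CPM in mice 1 and 3, against 1059.7 and 1093 CPM in Sst nuclei (log2 fold change 5.66, SE 0.32, adjusted p = 3.1e-13 by edgeR). The 7 Pvalb nuclei of mouse 2, outside the fit, gave 20.9 CPM. Grin3a was at 448 and 233 CPM against 39.9 and 8.69 CPM (3.96, SE 0.24), and Elfn1 at 122 and 135 CPM against 22.2 and 26.1 CPM (2.45, SE 0.21).

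Several genes had so few UMIs in 1 class that the ratio of CPM over both mice is given with its exact counting interval instead of a fitted fold. The intervals pool the UMIs of the mice and cover counting error only, not the spread between mice or nuclei. The transcription factor Npas1 had 419 UMIs in Sst nuclei and 1 in Pvalb nuclei, a ratio of 134.8 (24.1 to 5337). The peptide receptor gene Qrfpr had 275 and 1 (88.5, 15.7 to 3507), Emp1 232 and 1 (74.6, 13.3 to 2961) and the kinase Stk32b 200 and 1 (64.3, 11.4 to 2554). Pthlh, a gene of parathyroid hormone-like peptide, had 2 UMIs in Sst nuclei and 79 in Pvalb nuclei, a ratio of 123 (32.9 to 1031) in favour of Pvalb nuclei.

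Genes of Pvalb cells were lower in Sst nuclei. Of 18 such genes 17 were tested, none was higher and 10 were lower (median -1.09). Syt2, the calcium sensor of fast release, was at 4.83 and 4.43 CPM in Sst nuclei and at 131 and 142 CPM in Pvalb nuclei (log2 fold change -4.85, SE 0.24). Erbb4 was at 1677 and 1173 CPM against 8439 and 8162 CPM (-2.53, SE 0.17), and the fast potassium channel Kcnc1 at 141 and 114 CPM against 427 and 287 CPM (-1.43, SE 0.17). Further named genes lower in Sst nuclei were Mybpc1 (-5.62), Agbl1 (-4.72), Pde11a (-4.29) and Zbtb7c (-4.26). Sox6 (-0.54) was not called, with 306 and 225 CPM in Sst nuclei and 406 and 374 CPM in Pvalb nuclei. Of 18 genes of the caudal ganglionic eminence 10 were tested, 4 were higher in Sst nuclei and none was lower (median 1.14). Adarb2 (1.31) and Npas1 were among the 4, and over all genes 5.07% were higher. Against Lamp5 nuclei 11 genes of that list were tested, 1 was higher and 6 were lower (median -1.32).

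Metabotropic glutamate receptor genes were mostly higher in Sst than in Pvalb nuclei: 5 of 7 tested were higher and none lower (median 1.44). Grm8 was at 266 and 356 CPM against 42.9 and 89.4 CPM (2.32, SE 0.19). Grik1 (2.48), the T-type calcium channel Cacna1g (2.14), the nicotinic receptor Chrna7 (2.25), the GABA-A subunit Gabrg1 (4.37) and the growth factor Igf1 (2.70) were higher, and Gabrd was lower (-3.63). In the 7 Pvalb nuclei of mouse 2, Chrna7 was at 153 CPM, above the 127 CPM of the Sst nuclei there, and Cacna1g at 55.8 against 71.9 CPM.

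Sodium channel genes differed between these 2 classes. Of 5 alpha subunit genes tested, Scn3a was higher in Sst nuclei, at 95.9 and 69.2 CPM against 38.4 and 15.5 CPM (log2 fold change 1.71, SE 0.23). Scn9a was lower, at 53.8 and 22.2 CPM against 107 and 79.5 CPM (-1.38, SE 0.20). Scn1a was at 317 and 192 CPM against 531 and 469 CPM, a log2 fold change of -0.98 (SE 0.18) just short of the minimum of 1, and -1.03 with the gate. Scn8a was at 259 and 291 CPM against 364 and 382 CPM (-0.40, SE 0.17, adjusted p = 0.13 by edgeR), not called.

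Of 30 activity-regulated genes tested between Sst and Pvalb nuclei, 8 were higher in Sst nuclei and none lower (median 0.75): Jun, Arc, Npas4, Btg2, Inhba, Nptx2, Pcsk1 and Igf1. The list summed to 2162 and 2929 CPM in the Sst nuclei of mice 1 and 3 and to 1278 and 1984 CPM in the Pvalb nuclei, with mouse 3 above mouse 1 in both. Over all genes in this comparison 5.07% were higher in Sst nuclei and the median was 0.07. Against Lamp5 nuclei, 31 genes of the list were tested and none was called (median 0.18).

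Lamp5 nuclei, chosen by the same rule with Lamp5, numbered 181 (81, 29 and 71) and allowed a fit over all 3 mice. Lamp5 marks neurogliaform and related cells. Of 11512 genes 246 were higher in Sst nuclei and 302 lower, 4.76% in either direction (2.14% and 2.62%), with a median of 0.03 over all genes and 18.2% at an unadjusted p under 0.05. Without the block 150 passed, and leaving out a mouse gave 492 to 516. The 6 highest and 6 lowest genes by the naming rule, 12 in all, were called in each of these fits. The stress and RNA quality genes summed to 75223, 105353 and 72661 CPM in Sst nuclei against 53061, 73595 and 63295 CPM in Lamp5 nuclei, higher in Sst nuclei in each mouse. Of 10 of these genes tested none was called (median 0.16), and their part in the results was not tested.

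Crhbp was at 94.2, 70.0 and 210.0 CPM in Sst nuclei and at 1.26, 0 and 8.50 CPM in Lamp5 nuclei (log2 fold change 4.95, SE 0.29, adjusted p = 2.9e-05 by edgeR). Sox6 was at 306, 359 and 225 CPM against 18.3, 8.44 and 10.1 CPM (4.41, SE 0.20), and Satb1 at 334, 160.3 and 157 CPM against 30.9, 8.44 and 20.9 CPM (3.25, SE 0.19). The kinase gene Stk32a (5.28), Lama4 (5.20), Morrbid (4.20), Lypd6b (3.97) and Elfn1 (3.77) were also higher. Hpse had 102 UMIs in Sst nuclei and 1 in Lamp5 nuclei, a ratio of CPM of 54.7 (9.60 to 2182.5), and Oprk1 had 103 and 1 (55.3, 9.70 to 2204). Both intervals cover counting error of the pooled UMIs only.

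Genes of Lamp5 cells were lower: of 15 tested, 9 were lower and 1, Npy, was higher (median -2.56). The Wnt inhibitor Wif1 (-5.87), the receptor kinase Met (-5.07), Sema3c (-5.04), Hapln1 (-4.95), Dchs2 (-4.81) and Pde11a (-4.61) were the named genes furthest below. Hapln1 was at 5.52, 12.9 and 1.74 CPM in Sst nuclei and at 193, 167 and 69.0 CPM in Lamp5 nuclei. Fgf13 was at 248, 359 and 378 CPM against 2504, 1634 and 2599 CPM (-2.82, SE 0.21), and Cacna2d1 at 203, 409 and 421 CPM against 2429.8, 1784 and 2033 CPM (-2.70, SE 0.27). No Sst value of these 3 genes reached a Lamp5 value.

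Reln and Npy, which Lamp5 cells are known to express, differed less between these classes. Reln was at 649, 474 and 715 CPM in Lamp5 nuclei, below each Sst value, with a log2 fold change of 0.78 (SE 0.15) that stayed under the minimum of 1. Npy was at 72.0, 67.5 and 191 CPM, also below each Sst value (1.46, SE 0.18). The nociceptin precursor Pnoc was lower in Sst nuclei, at 13.8, 22.1 and 46.4 CPM against 64.4, 28.7 and 190.3 CPM (-1.95, SE 0.24). Scn8a was at 280.4, 223 and 263 CPM in Lamp5 nuclei against 259, 234 and 291 CPM in Sst nuclei, and its log2 fold change was 0.00057 (SE 0.13), not called.

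**Figure D4:**
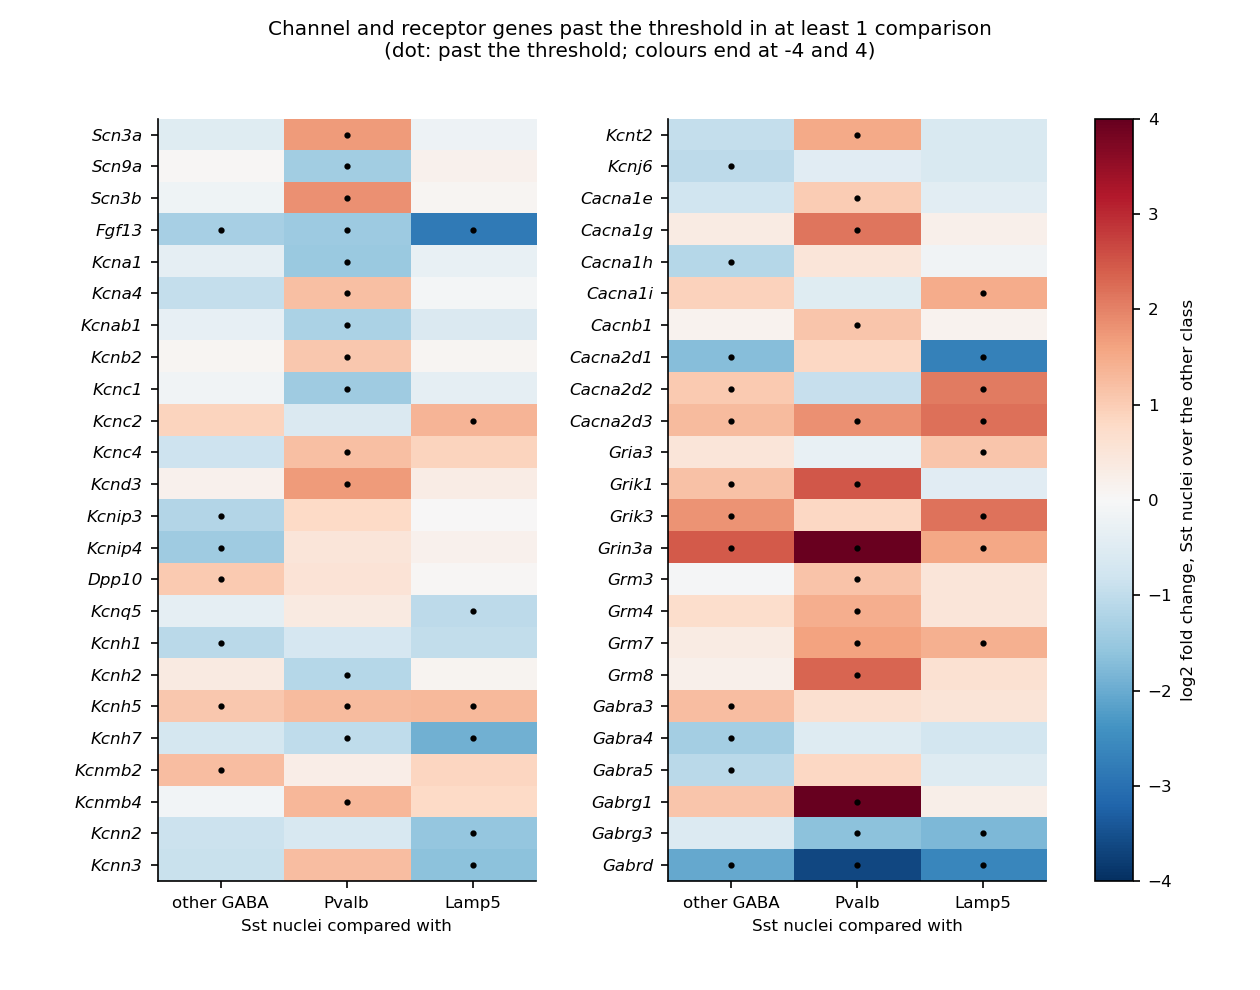
Log2 fold change of 48 channel and receptor genes called in at least 1 of the comparisons of Sst nuclei with other GABA, Pvalb and Lamp5 nuclei; a dot marks a called gene and colours end at -4 and 4. Grin3a is high and Gabrd and Fgf13 are low in each column; the columns share the same Sst nuclei.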

How the data were processed

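Nuclear RNA was sequenced with the 10x 3′ platform, 1 library per mouse. The authors deposited raw UMI counts per gene and barcode. Per the file headers, Cell Ranger 7.0.0 made those of mice 1 and 2, and version 7.1.0 those of mouse 3. The build, mm10, is named in the submitters' processing notes. The handling of introns is not given in the sources used. Libraries held 100230288, 50931257 and 140527761 UMIs in 8863, 13904 and 4659 barcodes, and 26480 nuclei with at least 500 genes were kept.

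Counts were summed per mouse and class, for classes with at least 10 nuclei, and tested with edgeR 4.0.16 (TMM, filterByExpr, quasi-likelihood test, mouse as a block, R 4.3.3), adjusted over all genes tested. Mouse is a block because both sums come from the same animal; deviations of a mouse's sums from the class means correlated at 0.58, 0.23 and 0.60 in the comparison with other GABA nuclei. The script was tested on simulated data. Doublets were scored with Scrublet (scanpy 1.11.5) and the top 0.8% per 1000 nuclei left out as an alternative. Other alternatives were DESeq2 1.42.0, no block, no filter, thinning to 1000 UMIs, each mouse left out, Sst of 5 or more, Npy of 1 or more, comparison nuclei without Sst, and the gate on inhibitory genes. Genes were named from those called in 1 direction in every mouse at 20 CPM or more in the higher class (15 highest and 10 lowest, then 6 and 6), leaving out the rule's genes and symbols beginning Gm or ending Rik, and from gene lists. The members and lists were chosen with earlier results of these data known. Gene positions are from GENCODE for GRCm38 (mm10), and promoters from RefSeq. Some genes counted in the lists are not reported here by name.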

Additional observations from a re-analysis of the deposited data

How the results depend on the processing

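The count of called genes against other GABA nuclei was 695, and 5 without the replicate block and 328 after thinning to 1000 UMIs, where 4935 genes could be tested. Leaving out 1 mouse gave 298 to 612. DESeq2 moved the share of higher calls from 38.7 to 50.9%, thinning to 18.0% and leaving out mouse 1 to 55.4%. Against Pvalb nuclei the count was 931, and 0 without the replicate block, 413 with DESeq2 and 166 after thinning. Against Lamp5 nuclei it was 548, and 150 without the replicate block and 172 after thinning, with 492 to 516 when a mouse was left out. Between Npy-positive and Npy-negative nuclei it was 106, and 12 with DESeq2, 8 without high doublet scores, 195 without the filter, and 0 with Npy of 1 or more, after thinning or without the replicate block. The cause of these changes was not tested, apart from the smaller number of genes tested after thinning.

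The mean Sst share of GABA nuclei was 10.2%, 0.939% with the rule applied after thinning and 19.1% with the gate, and 6.57 to 12.7% when a mouse was left out. In the gated comparison Nr4a2 turned from -1.64 to 0.0089. Scn8a turned to 0.11 after thinning against Pvalb nuclei. Against Lamp5 nuclei it was 0.00057 and turned to -0.035 with DESeq2, -0.12 with Sst of 5 or more, -0.0078 with the gate, and lay between -0.071 and 0.078 when a mouse was left out. No fit leaving out a mouse was possible against Pvalb nuclei or by Npy, since 1 mouse would remain, and the gate left 1 mouse by Npy. With Sst of 5 or more, mouse 2 had 6 nuclei and was not fitted. The 24 Sst nuclei of mouse 2 limit all levels there, and genes under a few UMIs per class could not be compared.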
